A study of Mus musculus with 9 samples.

Results

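Methylation of lysine 4 on histone H3 (H3K4) is mainly set by 6 methyltransferases in mice and removed by 2 families of demethylases, and transcripts of 10 of these enzymes were examined in XX, XO, and XY oocytes. The 10 genes were taken by name from the deposited matrices, which hold 28052 genes with UMI counts. They are the methyltransferase genes Kmt2a, Kmt2b, Kmt2c, Kmt2d, Setd1a and Setd1b, called writers here, and the demethylase genes Kdm1a, Kdm1b, Kdm5a and Kdm5b, called erasers. All 10 are autosomal and all 10 had UMIs, but Kmt2a and Kmt2b stayed below the filter on low counts, so that 8 of the 10 genes were among the 10993 genes tested. Kdm5b was picked out by the study from the same RNA-Seq samples, so its direction here is not independent evidence. The study also measured Kdm5b by quantitative RT-PCR, scaled to Ppia, in oocytes of several sizes. It reports low levels in all genotypes in the middle of growth, before a rise in XY oocytes larger than those pooled here.

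The 9 samples sequenced were 3 XX, 3 XO, and 3 XY pools of 30 oocytes each, of which 20 measured 55–60 µm in diameter and the other 10 measured 50–55 µm. The labels give the strain as C57BL/6 (B6) and the age of all donors as 18 days post partum. XY females, in which ovaries form although a Y chromosome is present, and their XX littermates were born to B6 females mated with B6.YTIR males. XO females, with a single X chromosome of maternal origin, were instead born to B6 females mated with carriers of the Paf X chromosome, a C3H/HeSnJ stock crossed back to B6 over several generations. The cross therefore differs together with the number of X chromosomes in XX against XO oocytes and with the presence of the Y chromosome in XY against XO oocytes, and these cannot be told apart. Each sample pools oocytes, and nothing in the labels tells how many females gave the oocytes of a pool, so that p-values measure the spread between these pools.

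Smart-seq3 libraries carry a unique molecular identifier (UMI) at the 5′ end of each transcript, so that a transcript molecule is counted once. The authors divided the counts by the gene total and by a factor from ERCC spike-in RNAs added to each sample, and this unit is called normalized CPM below. Samples had between 2130145 and 3157338 gene UMIs, and spike-ins took between 0.204 and 0.862% of all UMIs. The median log2 fold change of all tested genes was -0.46 in XX against XO oocytes, -0.19 in XX against XY oocytes and -0.30 in XY against XO oocytes, and with TMM scaling on the genes it was -0.03, -0.04 and -0.02. A gene at the median is thus already higher in XO oocytes with the spike-in factor. That factor is a TMM factor computed within the spike-ins, and it does not carry their amount relative to the genes. Scaling to the spike-in totals instead turned several signs in XX against XO oocytes, as given at the end. Fold changes of genes that were called are also given relative to the median of all tested genes where an XO comparison is concerned. Of 14 oocyte markers, all 14 had UMIs, and their summed level was 26800–29300 normalized CPM for XX, 18600–55800 for XO, and 19700–27300 for XY samples. Of 12 granulosa cell markers, 8 were in the table and Amh, Foxl2, Hsd17b1 and Wnt4 were not. Their sum was 48.0–66.7 for XX, 55.9–67.2 for XO, and 56.6–92.1 for XY samples, almost all of it from Kitl, Nr5a2 and Cyp19a1, and Fst and Inha had 1 UMI each over all 9 samples. The sums of immune, endothelial and erythroid markers overlapped between the 3 genotypes, with endothelial markers between 20.7 and 146 and the other lists at 22.6 or lower. Theca and stroma markers summed to 2.13–8.55 for XX, 2.26–4.65 for XO, and 5.13–6.97 for XY samples, so XO and XY samples did not overlap, and the part of such cells in the differences below was not tested. In such pools, fewer cells of a type and less RNA per cell cannot be told apart.

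H3K4 methyltransferases work in complexes named COMPASS, in which a shared core of WDR5, RBBP5, ASH2L and DPY30 is joined to 1 catalytic subunit. SETD1A and SETD1B set trimethylation at active promoters, KMT2A and KMT2B act at chosen promoters and CpG-rich regions, and KMT2C and KMT2D set monomethylation at enhancers. KDM1A and KDM1B are amine oxidases that remove mono- and dimethylation, whereas KDM5 enzymes are dioxygenases that remove di- and trimethylation. In growing oocytes KMT2B is needed for the trimethylation that spreads over the genome away from promoters, and KDM1B clears H3K4 methylation at imprinted regions before DNA methylation is set there. H3K4 methylation keeps the DNA methyltransferase DNMT3A and its partner DNMT3L from binding the histone tail.

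Promoters of Kdm1b, which was called, and of Kdm1a and Setd1a, whose levels moved together, are shown first. RefSeq windows in the GRCm38.p6 build, of 250 bases before to 50 bases after a start site, were found for 7 of the 10 genes, and those of Kdm1b (chr13:47043249-47043548, plus strand), Kdm1a (chr4:136602674-136602973, minus strand) and Setd1a (chr7:127777139-127777438, plus strand) are printed 5′ to 3′ along the gene. Capitals mark the GC box, GGGCGG or CCGCCC on the other strand. The Kdm5b window is not printed, since the study describes an oocyte form of Kdm5b without the 5′ exons, which need not begin there.
Kdm1b: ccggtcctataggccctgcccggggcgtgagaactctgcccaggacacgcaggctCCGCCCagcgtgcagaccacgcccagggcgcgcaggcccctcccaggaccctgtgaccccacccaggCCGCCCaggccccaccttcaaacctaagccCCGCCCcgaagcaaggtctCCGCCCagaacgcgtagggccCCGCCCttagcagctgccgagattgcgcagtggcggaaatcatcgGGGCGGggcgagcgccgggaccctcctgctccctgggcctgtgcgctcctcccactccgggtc
Kdm1a: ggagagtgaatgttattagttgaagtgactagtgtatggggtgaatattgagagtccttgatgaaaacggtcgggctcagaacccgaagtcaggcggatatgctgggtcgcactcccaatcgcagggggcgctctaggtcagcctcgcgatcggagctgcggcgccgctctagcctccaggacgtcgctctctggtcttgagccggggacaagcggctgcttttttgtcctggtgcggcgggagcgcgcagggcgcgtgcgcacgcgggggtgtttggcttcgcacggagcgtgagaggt
Setd1a: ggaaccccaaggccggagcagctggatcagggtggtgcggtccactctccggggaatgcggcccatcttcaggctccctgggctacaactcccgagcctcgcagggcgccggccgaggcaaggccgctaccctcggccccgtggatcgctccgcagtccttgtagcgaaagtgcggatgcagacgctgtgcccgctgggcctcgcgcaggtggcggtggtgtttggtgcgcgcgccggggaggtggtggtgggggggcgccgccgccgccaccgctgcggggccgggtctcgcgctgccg
The Kdm1b window held 6 GC boxes, and the Kdm1a and Setd1a windows none, while 35.7% of all 32851 promoters in the same table held at least 1. The Kdm1b window had 26 CpG dinucleotides, more than 83.1% of all promoters, whereas Kdm1a had 29 and Setd1a 35. The CCAAT box, read as CCAAT or ATTGG, was found once in the Kdm1a window and in neither of the others, against 37.4% of all promoters. TATAAA, or TTTATA on the other strand, was in none of the 3 windows and in 13.6% of all promoters. These matches describe letters in the windows, and no binding was measured.

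Transcripts of Kdm5b, the KDM5 demethylase of trimethylated H3K4 also known as Jarid1b, were about 3 times as high in XY oocytes as in XX or XO oocytes. Kdm5b lies on chromosome 1 (chr1:134560171-134635285, plus strand, GRCm38). Its level was 27.8, 22.4 and 17.7 normalized CPM in the 3 XX samples, 13.5, 18.1 and 35 in the 3 XO samples, and 49.3, 67.4 and 83.3 in the 3 XY samples, from 78, 64 and 58, from 26, 35 and 62, and from 106, 207 and 276 UMIs. All 3 XY samples lay above all 6 others, and the XX and XO samples overlapped. The log2 fold change was -1.56 (SE 0.39) in XX against XY oocytes, with an adjusted p = 0.395 in the edgeR quasi-likelihood test with Benjamini-Hochberg adjustment over all tested genes. In XY against XO oocytes it was 1.59 (SE 0.40, adjusted p = 0.485 in the same edgeR test), or 1.89 relative to the median of all tested genes. Both comparisons use the same XY samples. Kdm5b thus passed the unadjusted threshold of 0.05, which the study used and by which genes are called below, in both comparisons and the adjusted threshold in neither. In XX against XO oocytes the log2 fold change was 0.03 (SE 0.40, adjusted p = 0.974 by edgeR).

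**Figure D1:**
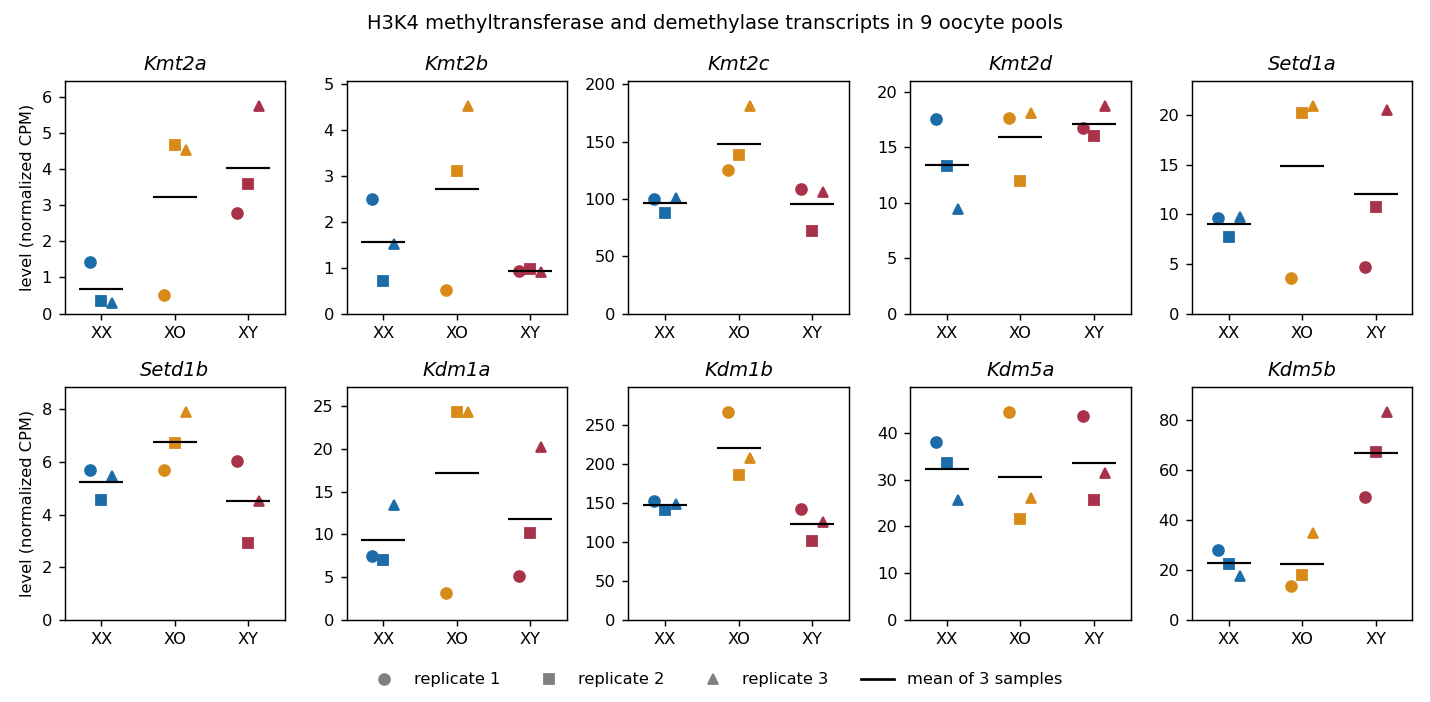
Level of each of the 10 genes (y axis, normalized CPM, linear from 0, a scale of its own in each panel) in the 9 oocyte pools, grouped by genotype, with the marker shape giving the replicate number and the line the mean of 3 samples. All 3 XY samples stand above the 6 others for Kdm5b, at 49.3 to 83.3 normalized CPM, and all 3 XO samples stand above the others for Kdm1b.

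Among the tested genes, 5.8% were called in XX against XY oocytes and 9.93% in XY against XO oocytes. Of the 8 tested members, 1 was called in XX against XY oocytes, Kdm5b, and 2 were called in XY against XO oocytes, Kdm5b and Kdm1b. By adjusted p no member was called, and of all tested genes 0.0819% were in XX against XY and 0.0364% in XY against XO oocytes. Only 1.69% of all tested genes were called as higher in XY than in XO oocytes, and 4.39% as higher in XY than in XX oocytes. In XX against XO oocytes 18.1% of all tested genes were called and 0 of the 8 members, neither at an unadjusted p under 0.05 nor after adjustment by edgeR, and DESeq2 with the spike-in scaling called 2, Kmt2c and Kdm1b. The median log2 fold change of the 8 members was -0.47 in XX against XO, beside -0.46 for all tested genes, -0.20 in XX against XY, beside -0.19, and -0.41 in XY against XO oocytes, beside -0.30.

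**Figure D2:**
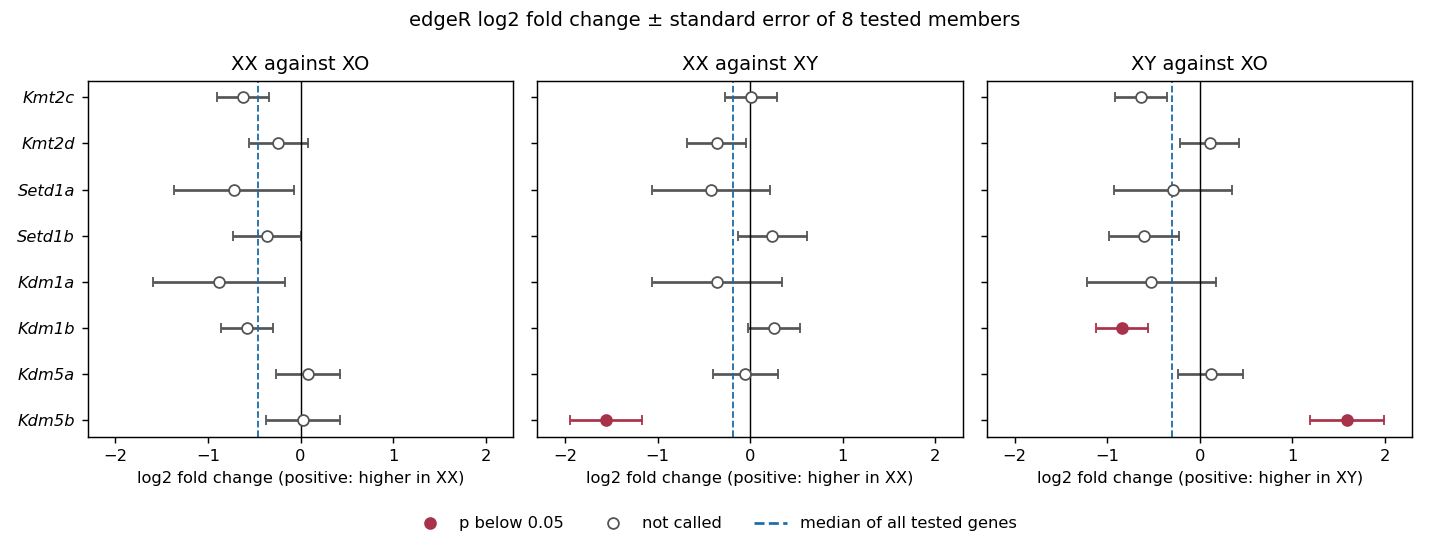
edgeR log2 fold change (x axis) with its standard error for the 8 tested genes in each of the 3 comparisons, filled where the unadjusted p was below 0.05, and a dashed line at the median of all tested genes. Kdm5b stands apart at -1.56 in XX against XY and 1.59 in XY against XO, and Kdm1b is filled in XY against XO at -0.84.

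The difference in Kdm5b held under most changes of the processing. It was called in 18 of 19 alternatives for XX against XY, with log2 fold changes between -1.74 and -1.07, and in 19 of 19 for XY against XO, between 1.33 and 2.35, and the adjusted p ranged from 0.000897 to 1 and from 2.25e-05 to 1 over the edgeR, DESeq2 and limma fits. The exception was scaling to the spike-in totals, which gave -1.07 in XX against XY oocytes and was not called. The adjusted p of 2.25e-05 came from limma on the batch-regressed values. As that fit takes no account of the earlier regression, it can understate the spread. Leaving out each sample in turn gave between -1.74 and -1.37 and between 1.33 and 2.08. All alternatives reuse the same samples and are not independent. Several could hardly move the value, such as leaving out an XO sample or the filter, which left -1.56 in XX against XY oocytes. Between XY and XO samples of the same replicate number Kdm5b was 3.66, 3.72 and 2.38 times as high in the XY sample.

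**Figure D3:**
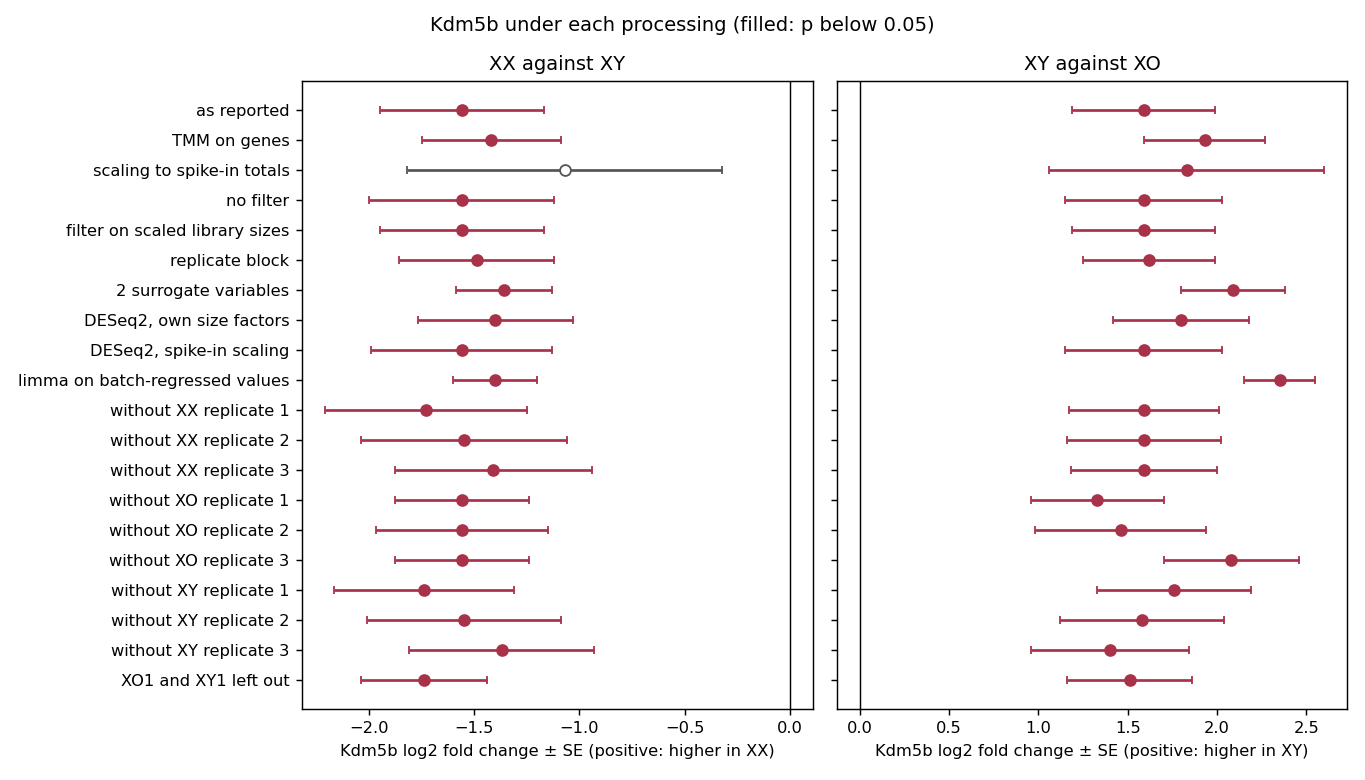
Log2 fold change of Kdm5b with its standard error (x axis) as reported and under 19 other ways of processing the counts (rows), filled where the unadjusted p was below 0.05. All values keep their sign, between -1.74 and -1.07 in XX against XY and between 1.33 and 2.35 in XY against XO, and the open point is the scaling to spike-in totals.

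The annotation lists 6 transcripts of Kdm5b, of which 2 code for protein and begin within 0.021 kb of each other, and 3 retained-intron transcripts begin 27.8, 61.7 and 62.6 kb downstream. Counts per gene do not tell from which of these starts a UMI came, and the oocyte form described by the study comes from the 3′ part of the gene, so the values are those of the gene and not of a full-length transcript. Kdm5b overlaps no other annotated gene, so its UMIs are not shared with a neighbor.

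KDM5A, the homolog first described as a partner of the retinoblastoma protein, differed from Kdm5b in pattern. Kdm5a on chromosome 6 (chr6:120364124-120444574) was at 38.1, 33.6 and 25.6 normalized CPM for XX, 44.5, 21.7 and 26.0 for XO, and 43.7, 25.7 and 31.4 for XY samples. All 3 genotypes overlapped, and the highest XO and XY samples were both replicate 1. The log2 fold changes were 0.08 (SE 0.35) in XX against XO, -0.05 (SE 0.35) in XX against XY and 0.12 (SE 0.35) in XY against XO oocytes, and none passed the test. The ratio of Kdm5b to Kdm5a was 0.695 ± 0.0313 (SD, n = 3) in XX, 0.828 ± 0.524 (SD, n = 3) in XO, and 2.13 ± 0.869 (SD, n = 3) in XY samples. Its lowest XY value, 1.13, lay below its highest XO value, 1.35, so that this ratio overlapped between XO and XY samples.

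The KDM5 family also has an X-linked and a Y-linked member, Kdm5c and Kdm5d. Kdm5d was at 40.0, 47.2 and 48.3 normalized CPM in the XY samples and between 0 and 1.13 in XX and XO samples, which have no Y chromosome and held 4 UMIs per genotype. Kdm5c was at 6.41, 5.25 and 7.31 for XX, 5.18, 2.07 and 4.52 for XO, and 3.72, 0.326 and 2.41 for XY samples, all XX values above all others. It was higher in XX than in XY oocytes by a log2 fold change of 1.59 (SE 0.64, adjusted p = 0.765 by edgeR), past the unadjusted threshold alone, and did not pass the test in XX against XO oocytes (0.69, SE 0.62). The 4 genes together gave 61.8 ± 10.6 normalized CPM for XX, 57.6 ± 13.2 for XO, and 148 ± 15.1 for XY samples (SD, n = 3 each), with no XY sample below 137 and no other sample above 72.3. Without the sex-linked pair, Kdm5a and Kdm5b summed to 55.1 ± 11.3 for XX, 52.9 ± 11.5 for XO, and 100.0 ± 12.7 for XY samples (SD, n = 3 each). Kdm5b held 34.5–38.4% of the KDM5 UMIs for XX, 21.1–52.5% for XO, and 36.1–50.4% for XY samples, where Kdm5d held 29.2–33.6%. The widest spread of the share was in XO samples, from 21.1% (95% Wilson interval 14.9–29.2%) to 52.5% (43.6–61.3%), intervals that cover counting error only.

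**Figure D4:**
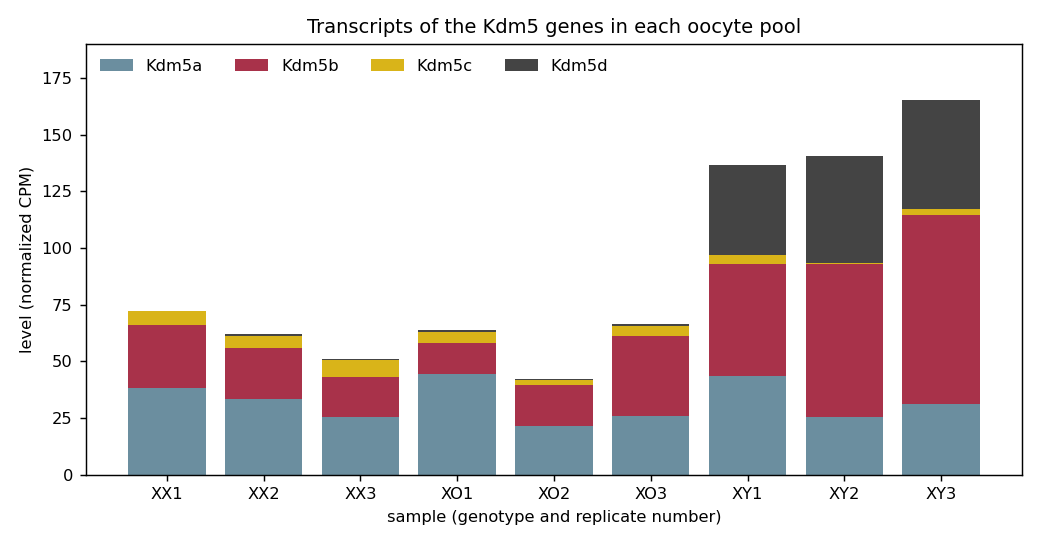
Stacked levels of the 4 Kdm5 genes (y axis, normalized CPM, from 0) in each of the 9 oocyte pools (x axis). XY samples reach 137 to 165 in total, with Kdm5d present at 40.0 to 48.3, and the other 6 samples reach 42.4 to 72.3.

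Kdm1b, the demethylase of growing oocytes that acts at imprinted regions, was lower in XY than in XO oocytes. Kdm1b on chromosome 13 (chr13:47043499-47085279) was at 152, 140 and 148 normalized CPM for XX, 266, 186 and 207 for XO, and 142, 101 and 125 for XY samples. All 3 XO samples lay above all 6 others, and XX and XY samples overlapped. The summed level of all genes was also higher in every XO sample, 1181293 to 1422594 normalized CPM, than in the 6 others, 802037 to 990044. The share of all tested genes with the same separation was not counted. In XY against XO oocytes the log2 fold change was -0.84 (SE 0.28, adjusted p = 0.485 by edgeR), past the unadjusted threshold, or -0.54 relative to the median of all tested genes. As 8.24% of all tested genes were called as higher in XO than in XY oocytes, a call in this direction was common. Kdm1b was called in 15 of 19 alternatives and missed the threshold with TMM scaling (-0.58), with spike-in totals (-0.63), without a filter (-0.84) and without XY2 (-0.72). XY samples had 0.534, 0.542 and 0.605 times the level of the XO sample with the same number. In XX against XO oocytes the log2 fold change was -0.58 (SE 0.28, adjusted p = 0.291 by edgeR), not called although the samples did not overlap, and -0.12 relative to the median. With the replicate block (-0.57) and with DESeq2 on the spike-in scaling (-0.58) it was called. In XX against XY oocytes it was 0.26 (SE 0.28, adjusted p = 1 by edgeR).

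Leaving Kdm5b aside, Kdm1b was the highest of these genes in all 3 genotypes, at 29.4, 44.0 and 24.6 normalized CPM per kb of transcript in XX, XO, and XY oocytes. The next was Kmt2c, at 6.42, 9.88 and 6.36 per kb. Kdm5b was left out of this order, since the length of its transcript in oocytes was not measured here. The lowest were Kmt2a and Kmt2b, both at 0.321 per kb or lower. As a 5′ UMI counts a molecule whatever its length, the 10 genes were also ranked without lengths. Kdm1b was again highest, at 147, 220 and 123 normalized CPM in XX, XO, and XY oocytes. Kmt2c was again next, at 96.4, 148 and 95.4, so the gap between them was smaller than per kb. Kdm5b ranked at 4 in XX and XO oocytes and at 3 in XY oocytes.

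Kmt2c, which encodes an enhancer methyltransferase, made up most of the writer UMIs. Kmt2c on chromosome 5 (chr5:25271798-25498783) was at 100.0, 87.9 and 101 normalized CPM for XX, 125, 138 and 181 for XO, and 109, 71.6 and 106 for XY samples. All XO samples lay above all others, as for Kdm1b and for the summed level of all genes. The log2 fold change was -0.62 (SE 0.28, adjusted p = 0.283) in XX against XO and -0.63 (SE 0.28, adjusted p = 0.501) in XY against XO oocytes, just outside the unadjusted threshold of the edgeR test, and 0.01 (SE 0.28) in XX against XY oocytes. With the replicate number as a block they were -0.61 and -0.64 and both were called, and without XO1 they were -0.73 and -0.74 and both were called. Relative to the median of all tested genes, the log2 fold changes as first given were -0.16 and -0.33. With TMM scaling neither passed. Kmt2c was 76.4 ± 3.02% of the summed level of the 6 writers for XX, 77.7 ± 3.67% for XO, and 71.1 ± 5.74% for XY samples (SD, n = 3 each).

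Kmt2d, the paralog of Kmt2c, was nearly level across the genotypes. It was at 17.5, 13.3 and 9.44 normalized CPM for XX, 17.6, 11.9 and 18.1 for XO, and 16.7, 16.0 and 18.7 for XY samples, which overlapped. Its log2 fold changes were -0.24 (SE 0.32) in XX against XO, -0.36 (SE 0.32) in XX against XY and 0.11 (SE 0.32) in XY against XO oocytes, none of which passed the test.

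Setd1a and Kdm1a, a promoter methyltransferase and an eraser of mono- and dimethylation, varied more between samples within the XO and XY genotypes than between genotype means. Kdm1a on chromosome 4 (chr4:136550540-136602723) was at 7.48, 7.0 and 13.4 normalized CPM for XX, 3.11, 24.3 and 24.3 for XO, and 5.11, 10.1 and 20.2 for XY samples. Setd1a on chromosome 7 (chr7:127776670-127800122) was at 9.62, 7.70 and 9.75 for XX, 3.62, 20.2 and 20.9 for XO, and 4.65, 10.7 and 20.5 for XY samples. XO1 and XY1 were the lowest of the 9 samples for both genes, from 6 and 11 UMIs of Kdm1a and 7 and 10 UMIs of Setd1a. Neither gene was called in any of the 3 comparisons, with log2 fold changes of -0.88 (SE 0.71) for Kdm1a and -0.72 (SE 0.65) for Setd1a in XX against XO oocytes. Without XO1 these became -1.37 and -1.18 and both were called. On the batch-regressed values of all 9 samples both were called in the opposite direction, at 0.97 and 0.94, so that neither call nor direction held across the processing.

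**Figure D5:**
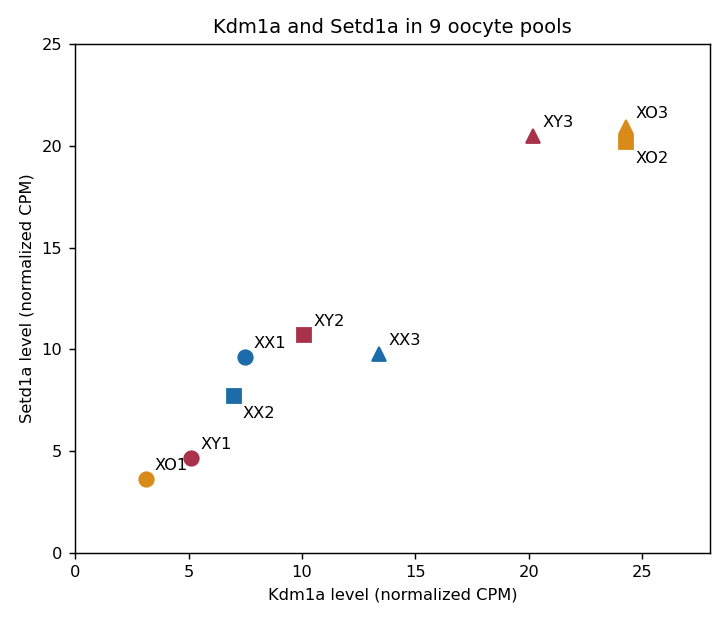
Level of Setd1a (y axis) against Kdm1a (x axis), both in normalized CPM, in the 9 oocyte pools, colored by genotype and labelled with the replicate number. XO1 and XY1 lie lowest for both genes, and XO2, XO3 and XY3 lie highest, near 20 for Setd1a.

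The levels of Kdm1a and Setd1a followed each other over the 9 samples with a Pearson r of 0.97 and a Spearman rho of 0.93, and after subtraction of genotype means r was again 0.97. Kmt2c and Setd1b had r = 0.91, and Kdm1a and Kdm5a had r = -0.85. These are descriptions over 9 samples, in each of which all genes share 1 scaling factor. XO1 and XY1, the lowest samples for Kdm1a and Setd1a, also deviated together from their genotype means over all tested genes, with r = 0.814. How often other gene pairs reach such values was not computed, so nothing particular to these pairs is shown. Setd1a overlaps Gm49388, a coding gene model on the same strand, over 14515 bases, so that UMIs could be split between them, and Gm49388 had 126 UMIs in all. Kdm1a overlaps Luzp1 on the opposite strand, which the stranded alignment of the authors keeps apart.

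Setd1b, the SETD1A paralog needed in the maternal germ line, was at 5.70, 4.55 and 5.48 normalized CPM for XX, 5.70, 6.72 and 7.90 for XO, and 6.04, 2.93 and 4.53 for XY samples. The XX and XO samples met at 5.70 and the XY samples overlapped both. Its largest difference was -0.60 (SE 0.38, adjusted p = 0.581 by edgeR) in XY against XO oocytes, and each sample held only 9 to 18 UMIs.

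Kmt2b, the writer of trimethylation away from promoters in growing oocytes, and its paralog Kmt2a were close to the limit of detection. Kmt2b had 7, 2 and 5 UMIs for XX, 1, 6 and 8 for XO, and 2, 3 and 3 for XY samples, which overlapped. Kmt2a had 4, 1 and 1 UMIs for XX, 1, 9 and 8 for XO, and 6, 11 and 19 for XY samples, and its XY levels, 2.79 to 5.74 normalized CPM, lay above its XX levels, 0.305 to 1.42. A count of 0 would allow 3 UMIs per genotype, or 0.337, 0.533 and 0.364 normalized CPM in XX, XO, and XY oocytes. Both genes were outside the main test. With no filter Kmt2a had a log2 fold change of -2.51 (SE 0.78, adjusted p = 0.222 by edgeR) in XX against XY oocytes and -2.17 (SE 0.82, adjusted p = 0.111) in XX against XO oocytes, both past the unadjusted threshold, and Kmt2b passed in none of the comparisons. The Kmt2a call in XX against XO oocytes was lost without XX2 (-1.88), XX3 (-1.80), XO2 (-1.80) or XO3 (-1.86) and with spike-in totals (-1.72). In XX against XY oocytes the call was lost without XX3 (-2.14) and with spike-in totals (-2.22), and the value was -3.46 without XX1. These differences rest on 6 UMIs of Kmt2a in the 3 XX samples together.

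Summed over the 6 writers, the level was 126 ± 11.6 normalized CPM for XX, 192 ± 42.4 for XO, and 134 ± 25.5 for XY samples (SD, n = 3 each). Summed over the 4 erasers it was 211 ± 12.2, 290 ± 38.6 and 235 ± 28.4 (SD, n = 3 each). The ratio of erasers to writers was 1.60–1.77 for XX, 1.23–2.14 for XO, and 1.66–1.93 for XY samples, so the 3 genotypes overlapped. Within the erasers, Kdm1b held 69.6 ± 2.5% for XX, 75.5 ± 5.34% for XO, and 52.2 ± 6.07% for XY samples (SD, n = 3 each), and all XY samples, at 59.2% or lower, lay below the 6 others, at 67.4% or higher. Kdm5b is part of the same sum, and Kdm1b itself overlapped between XX and XY samples. Between these 2 genotypes the share thus largely restates the higher Kdm5b level in XY samples. Against XO samples Kdm1b was itself lower in XY samples, at 123 against 220 normalized CPM on average, so both genes enter the lower share.

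The 5 genes that followed Kdm5b most closely over the 9 samples were found by Pearson r of the log2 levels among 7269 genes, those averaging 10 normalized CPM or more. They were Baz1b (r = 0.959), Ttc39a (0.948), Ttc41 (0.944), Kif3a (0.935) and Gm26656 (0.927). Ttc39a averaged 10.7, 11.3 and 40.3 normalized CPM in XX, XO, and XY oocytes, a larger step than that of Baz1b, which averaged 56.4, 56.0 and 69.4. All 5 were highest on average in XY oocytes, which their choice for likeness to Kdm5b over the same samples largely sets in advance.

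The enzymes act with partners, and 50 further genes of H3K4 methylation were listed, of which 49 had UMIs and 39 were tested. Of these 39, 2 were higher in XX and 10 higher in XO oocytes in XX against XO, 3 were higher in XX and 0 higher in XY oocytes in XX against XY, and 0 were higher in XY and 3 higher in XO oocytes in XY against XO. Shares of all tested genes in these directions were 1.4%, 16.7%, 1.41%, 4.39%, 1.69% and 8.24%. With TMM scaling the count higher in XO than in XX oocytes was 1 and that higher in XX was 4, and without XO1 they were 21 and 2. Leaving out XX1, XX2, XO2 or XO3 left 1, 3, 3 and 2 calls in XX against XO oocytes in place of 12. In XY against XO oocytes 18 genes were called without XO1 and 7 without XY3, in place of 3, and 0 or 1 without XX1, XX2, XO2, XY1 or XY2. In XX against XY oocytes there were 5 calls without XO1. Over all genes, leaving out XO1 gave 4279 calls in XX against XO oocytes in place of 1986. In XX against XY oocytes it gave 1283 in place of 638, and in XY against XO oocytes 3720 in place of 1092. In XX against XO oocytes, most calls higher in XO were thus lost with TMM scaling, and the signs of these genes under TMM are not listed. The median log2 fold change of the list there was -0.59 as reported, -0.14 with TMM scaling and 0.33 with spike-in totals. In XY against XO oocytes this median stayed negative, at -0.47, -0.27 and -0.44 in the same order.

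Of the 4 subunits of the COMPASS core, Dpy30 (22.8, 64.7 and 36.2 normalized CPM on average in XX, XO, and XY oocytes) and Ash2l (12.0, 31.3 and 15.8) were higher in XO than in XX oocytes, with log2 fold changes of -1.50 (SE 0.49, adjusted p = 0.204) and -1.37 (SE 0.49, adjusted p = 0.22) by edgeR. Rbbp5 (40.8, 61.6 and 37.4) was higher in XO than in XY oocytes, at -0.72 (SE 0.30, adjusted p = 0.494 by edgeR). Wdr5, the remaining subunit, named after its values were seen, ran from 6.21 in XO1 to 77.3 in XO3 and did not pass. Relative to the median of all tested genes, Dpy30 was at -1.04, Ash2l at -0.91 and Rbbp5 at -0.42. Dpy30 and Ash2l in XO1 were at 25.4 and 12.9, within or near the XX range, and XO2 and XO3 carried the difference. Of 8 tested subunits of single complexes, Paxip1, found in the KMT2C and KMT2D complexes, was higher in XO than in XX oocytes at -1.35 (SE 0.45, adjusted p = 0.208 by edgeR), or -0.89 relative to the median. Hcfc1 is a scaffold of the SETD1 and KMT2A complexes, and Kdm6a the H3K27 demethylase of the KMT2C and KMT2D complexes. They were higher in XX than in XY oocytes at 0.95 (SE 0.32) and 0.85 (SE 0.28). Hcfc1 was also higher in XX than in XO oocytes at 0.72 (SE 0.32), or 1.18 relative to the median.

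Hcfc1 and Kdm6a are X-linked. The list with Kdm5c held 5 X-linked genes, Kdm5c, Zmym3, Hcfc1, Kdm6a and Phf8, named together after their values were seen. All 5 had positive log2 fold changes in XX against XO oocytes (0.60 to 1.05, 2 called) and in XX against XY oocytes (0.85 to 1.59, 4 called). These comparisons share the XX samples. Of all tested genes, 1.4% were called as higher in XX than in XO oocytes and 1.41% as higher in XX than in XY oocytes. The share among all X-linked genes was not counted here, and the study reports most X-linked genes as higher in XX oocytes. The 10 writers and erasers are all on autosomes.

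Among the tested partners of KDM1A and KDM1B, Glyr1, the nucleosome-binding cofactor of KDM1B, was at 28.5, 33.3 and 39.6 normalized CPM for XX, 31.1, 69.8 and 107 for XO, and 28.8, 31.6 and 43.5 for XY samples. It was higher in XO oocytes than in XX oocytes (-1.04, SE 0.42) and than in XY oocytes (-1.0, SE 0.42), as Kdm1b was against XY oocytes, but XO1 was highest for Kdm1b and lowest of the XO samples for Glyr1. Of 4 tested other enzymes, Kdm2b, a demethylase with a CpG-binding domain, was higher in XO than in XX oocytes at -0.70 (SE 0.29). Relative to the median of all tested genes, Glyr1 was at -0.58 against XX and -0.70 against XY oocytes, and Kdm2b at -0.24.

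Of 15 tested proteins that read or avoid methylated H3K4, Phf8, an X-linked demethylase that binds trimethylated H3K4, was higher in XX than in XO (0.66, SE 0.24) and XY oocytes (0.87, SE 0.24, adjusted p = 0.436 by edgeR). Ing3 and Phf13, whose PHD fingers bind trimethylated H3K4, were higher in XO than in XX oocytes at -1.18 (SE 0.46) and -2.94 (SE 1.2), and so were Ing4 (-0.70, SE 0.31) and Dnmt3a (-1.09, SE 0.49), which were named after their values were seen. Phf13 was at 1.04 in XO1 and at 68.2 and 76.2 in XO2 and XO3. Kdm7a, a paralog of Phf8, was higher in XO than in XY oocytes at -0.64 (SE 0.26). Relative to the median of all tested genes, Ing3 was at -0.72, Phf13 at -2.48, Ing4 at -0.24, Dnmt3a at -0.63 and Kdm7a at -0.34.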

How the data were processed

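RNA of 9 pools of oocytes was analysed, grouped by the sample labels. The authors aligned stranded reads with Hisat2 to GRCm38 and deposited UMI counts per gene. The authors also deposited a signal named normalized CPM, which was checked to be each count divided by the gene total and by a TMM factor computed from the ERCC spike-ins, and a further matrix of log2 values, from which the authors had regressed out batch effects with sva. The deposited count table holds 28052 genes, 79 spike-ins and 1 further entry, which was left out. Columns of all samples could be mapped.

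Counts were tested with edgeR 4.0.16 in R 4.3.3 (quasi-likelihood F test, filterByExpr on the gene totals with a minimum count of 10, spike-in TMM factors, all 9 samples in 1 fit, common dispersion 0.201, two-sided). Genes with an unadjusted p below 0.05 were called, as in the study, with Benjamini-Hochberg adjustment over 10993 genes. Alternatives used TMM on the genes, spike-in totals, no filter, a block, 2 surrogate variables (sva 3.50.0), DESeq2 1.42.0, limma 3.58.1 on the batch-regressed values, and each sample left out. Levels are given as normalized CPM, with SD over 3 samples. The scripts were tested on simulated data. Intervals and the floor of 3 UMIs cover counting error only. Replicate samples differed beyond sampling noise.

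The fit reported first used genotype means only and no pairing. Only the replicate block and the ratios of XY to XO samples of the same number treat a shared number as a pairing. The correlation of deviations from genotype means between XY and XO samples of the same number was 0.814, 0.271 and 0.763. For XX and XO it was 0.444, -0.421 and 0.660 and for XX and XY 0.410, -0.0582 and 0.706. The closest match of XO2 was XY3, at 0.703, so the pairing by number is uncertain. The labels do not say what a number marks. One XO column has no number and was read as XO1, the only XO sample without a column of its own.

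The writers, erasers and other lists were chosen with earlier results of these data known. The text names all 10 members, Kdm5c and Kdm5d, up to 4 genes per list with the smallest edgeR p among those called in any comparison, and the 5 genes most like the member with the smallest p. Genes outside this rule are marked as such. A result that this rule would name is not reported here. Gene positions and transcripts are from Gencode vM21, and promoters from RefSeq.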

Additional observations from a re-analysis of the deposited data

How the results depend on the processing

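Of the 8 tested members, 0 were called in XX against XO oocytes, 1 in XX against XY oocytes and 2 in XY against XO oocytes. With an adjusted p below 0.05 none was called in any of them. In XX against XO oocytes the count was 2 with DESeq2 on the spike-in scaling, 2 with the replicate block, 1 with no filter, 1 with a filter on scaled library sizes, 4 on the batch-regressed values and 4 without XO1 and XY1. In XX against XY oocytes it was 2 with surrogate variables, 2 on the batch-regressed values, 2 with no filter, 2 with the filter on scaled sizes, 3 without XO1 and XY1, and 0 with spike-in totals. In XY against XO oocytes it was 1 with TMM on genes, 1 with no filter, 1 with spike-in totals and 5 on the batch-regressed values. Leaving out each sample in turn gave 0 to 4, 1 to 2 and 1 to 3. The filter on scaled sizes, the fits without XO1 and XY1, and the counts of pathway genes were chosen after seeing the data. With the replicate block 3 members were called in XY against XO oocytes (Kmt2c, Kdm1b and Kdm5b), and 10 pathway genes in place of 3. In XX against XO oocytes the block called Kmt2c (-0.61) and Kdm1b (-0.57).

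Signs changed as follows, and the cause was not tested. In XX against XO oocytes, scaling to spike-in totals gave 0.29 for Kmt2c, 0.53 for Kmt2d, 0.05 for Setd1a, 0.50 for Setd1b, 0.04 for Kdm1a and 0.37 for Kdm1b. TMM gave 0.18 for Kmt2d and 0.08 for Setd1b, and DESeq2 with its own size factors 0.06 for Kmt2d. Surrogate variables gave 0.08 for Kmt2c, 0.29 for Kmt2d, 0.04 for Setd1a and 0.45 for Setd1b. Batch-regressed values gave 0.05 for Kmt2c, 0.23 for Kmt2d, 0.94 for Setd1a, 0.28 for Setd1b and 0.97 for Kdm1a, and Kdm5b was -0.23 without XO1 and XY1. In XX against XY oocytes, spike-in totals gave 0.17 for Kmt2d, 0.05 for Setd1a, 0.29 for Kdm1a and 0.63 for Kdm5a, and Kdm5a was 0.11 with TMM, 0.24 with surrogate variables, 0.11 with DESeq2 on its own size factors, 0.11 on the batch-regressed values and 0.18 without XO1 and XY1. In XY against XO oocytes, Setd1a was 0.04 with TMM, 0.00 with spike-in totals, 0.35 with surrogate variables and 0.99 on the batch-regressed values, and Kdm1a was 0.18 with surrogate variables and 1.04 on the batch-regressed values.

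With single samples left out, signs changed for Kdm5a (-0.12 to 0.44) and Kdm5b (-0.23 to 0.52) in XX against XO oocytes. They changed for Kmt2c (-0.16 to 0.12), Setd1a (-0.79 to 0.21), Setd1b (-0.00 to 0.48), Kdm1a (-0.72 to 0.28) and Kdm5a (-0.21 to 0.18) in XX against XY oocytes, and for Kmt2d (-0.06 to 0.22), Setd1a (-0.92 to 0.07) and Kdm5a (-0.11 to 0.49) in XY against XO oocytes. Members with fewer than 20 UMIs in every sample, Kmt2a, Kmt2b and Setd1b, are limited by depth.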
